A study of Arabidopsis thaliana with 3 samples.

Results

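Acceptor shifts of 4 to 12 nt are alternative splicing events in which the 3' end of an intron lies 4 to 12 nt away from the acceptor of the listed gene model. They were taken from the deposited event table as all events of class ALTA in nuclear genes whose listed segment is 4 to 12 nt long. The rule found 3290 events in 2600 genes, of 62909 events in the table and 8817 nuclear acceptor shifts (37.3%). In 899 of them (sign plus) the new acceptor lay upstream, so that the exon was longer, and in 2391 (sign minus) it lay downstream and the exon was shorter. The segment could be divided by 3 (6, 9 or 12 nt) in 842 events and not in 2448. The choice used class and length only, no read level.

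The study sequenced pooled first true leaf tissue of the Arabidopsis thaliana accession Col-0 in 3 RNA libraries, given by the labels as replicates of 1 group. The plants were untreated and wild type, grown at 20 °C with 16 h light, 8 h dark and 70% humidity, and their age is not given in the labels. The libraries held 34587113, 33141594 and 62624801 reads over 46303 junctions with a listed event. Nothing states that the 3 pools were grown separately, so p-values measure only the spread between these libraries, which may be technical. Leaves were sequenced whole, so more cells that use a site and more use per cell cannot be told apart. Among 14 marker genes, the mean over libraries of the median junction was 443351 reads in RBCS1A and 162716 in RCA, both of photosynthetic cells. It was 2727 in SUC2 (phloem companion cells), 505 in ATML1 (epidermis), 202 in FAMA and 163 in MYB60 (guard cells) and 144 in XCP1 (vascular). It was 17.7 in the trichome gene GL2 and 15.7 in the floral gene AG. The trichome gene GL1 and the floral gene AP3 have no junction listed, so these values do not set trichome genes apart from floral ones.

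In splicing, the U2AF dimer binds the pyrimidine-rich stretch and the AG at the intron's end. The second catalytic step joins the upstream exon just after an AG. A competing AG a few bases away can be used instead. In coding sequence a segment divisible by 3 adds or removes whole codons, while any other length shifts the frame. A shifted frame often meets a stop codon early, and transcripts with a stop well before the last exon junction are typical substrates of nonsense-mediated decay.

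The sequences below show acceptor pairs in which 1 site carried nearly all reads, pairs used about equally, and pairs whose alternative site was minor. All are read 5' to 3' on the gene's strand from RefSeq's TAIR10.1 chromosomes, and capitals mark the segment between the acceptors. The base before the capitals ends the upstream acceptor, and the last capital ends the downstream one. With sign plus the alternative form keeps the capitals in the exon, and with sign minus it removes them. The first 4 are upstream acceptors that nearly replaced or largely replaced the listed one.
PSAN, 4 nt upstream, chr5:25628798-25628843, minus strand: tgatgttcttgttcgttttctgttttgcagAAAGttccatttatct
AT2G26500, 4 nt upstream, chr2:11270344-11270373, plus strand: aatcttgttttctttttcagCAAGgaatgg
AT3G47370, 10 nt upstream, chr3:17454446-17454475, minus strand: tgtgacttttgcagAGTGATAAAGaggtgt
SEC61 BETA, 4 nt upstream, chr2:18587466-18587495, minus strand: aggccaaccattattctcagATAGagaaaa
The next 3 are downstream or upstream acceptors of coding regions that kept the frame and were the main form.
AT1G11930, 6 nt downstream, chr1:4030191-4030238, plus strand: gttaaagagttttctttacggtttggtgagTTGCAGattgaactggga
UBP1A, 12 nt downstream, chr1:20185377-20185430, minus strand: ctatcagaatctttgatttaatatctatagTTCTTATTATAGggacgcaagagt
AT2G26340, 9 nt upstream, chr2:11216062-11216112, plus strand: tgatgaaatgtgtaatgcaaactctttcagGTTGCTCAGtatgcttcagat
The next 4 were used at close to equal levels.
AT2G19730, 4 nt downstream, chr2:8511719-8511748, plus strand: tcatttttggtgtggtgaagGTAGgtattt
AT3G52920, 9 nt downstream, chr3:19625829-19625879, plus strand: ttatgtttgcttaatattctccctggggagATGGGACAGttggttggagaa
AT4G14360, 5 nt upstream, chr4:8270310-8270339, minus strand: tttttttatatatatatagAACAGattcaa
AGO1, 6 nt downstream, chr1:17890632-17890679, minus strand: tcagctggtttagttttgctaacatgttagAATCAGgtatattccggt
The last 5 are alternative acceptors below 25% in genes of photorespiration, splicing and light signalling.
AGT, 5 nt downstream, chr2:5540925-5540954, minus strand: gtttgtaagtttttgacagTGTAGaggagg
SR34, 4 nt downstream, chr1:626893-626922, plus strand: tgtttttggatttgataaagGAAGaatgag
PHOT2, 10 nt upstream, chr5:23528207-23528258, plus strand: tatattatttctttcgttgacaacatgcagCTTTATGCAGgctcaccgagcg
PIF4, 6 nt downstream, chr2:17888686-17888733, plus strand: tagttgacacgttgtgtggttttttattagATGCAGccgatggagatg
PIF5, 6 nt downstream, chr3:21828291-21828338, minus strand: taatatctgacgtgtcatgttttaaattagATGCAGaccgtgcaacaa

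The level of an event is its alternative reads in percent of all reads of its junction, which the table gives for 3255 of the 3290 events, those between neighbouring exons. The other 35, at pairs of exons with others between them, have whole-gene read totals and were left out of all levels below. The 3255 events sat at 3174 junctions, 3093 with 1 such event and 81 with 2. Median reads of their junctions were 228, 217 and 384 in replicates 1, 2 and 3, and median alternative reads 5, 4 and 7. The table holds only events with at least 1 alternative read in every library, and 1044 of the 3255 (32.1%) rested on a single alternative read in at least 1 library. A gene model's intron abutted the listed segment in 3254 of the 3290 events (98.9%). Of the 3221 of these with a level, 2857 lay in coding sequence, 299 in 5' UTRs, 53 in 3' UTRs and 12 in noncoding transcripts, and 759 (23.6%) were at the first intron.

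Most of these acceptors were minor in leaves. Their median level was 2.25% in replicate 1, 2.26% in replicate 2 and 1.99% in replicate 3 (2.17% ± 0.151, SD, n = 3). A mean level of at least 10% was reached by 708 events (21.8%) and of at least 50% by 155 (4.76%). In edgeR's quasi-likelihood test of alternative against other reads, with library as block and Benjamini-Hochberg adjustment over all 58509 nuclear junction-level events, the alternative form exceeded the other reads at 108 of the 3255 junction-level events (3.32%). Over all events tested that share was 5.65%, and over acceptor shifts of all lengths 6.41%. The alternative form was below the other reads at 3054 events (93.8%; 90.3% over all events tested), and 93 passed in neither direction.

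At the edges of the length range the levels did not move evenly. The 958 shifts of 3 nt just outside it had a median level of 9.40%, and the 659 shifts of 4 nt just inside 2.03%. The order differed by direction: downstream the medians were 11.4% at 3 nt and 1.56% at 4 nt, and upstream 7.83% and 10.3%. Shifts of 12 nt (165 events) had 2.1% and shifts of 13 nt just outside (173 events) 2.17%. Set against all 3-nt acceptor shifts, the shifts of 4 to 12 nt were lower by -7.23 points in median level (± 0.342, SD, n = 3 libraries), in 3 of 3 libraries. An exact sign-flip permutation test over 3 libraries cannot go below p = 0.25 (two-sided), and this difference gave p = 0.25 (adjusted over 10 comparisons 0.278). It was -9.78 points for minus and -1.91 points for plus events, a split added after seeing the data. Against acceptor shifts over 12 nt the difference was 0.0891 points ± 0.167 (exact p = 0.5), with libraries on either side of 0. Donor shifts of 4 to 12 nt had a median of 3.11% ± 0.158, and the acceptor shifts lay -0.943 points ± 0.0736 from them (exact p = 0.25, adjusted 0.278).

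Acceptors upstream of the listed one were fewer but more used than those downstream. The 874 events with sign plus had a median level of 5.93% ± 0.140 and the 2381 with sign minus 1.63% ± 0.107, a difference of 4.19, 4.41 and 4.28 points in the 3 libraries (exact p = 0.25, the smallest possible; adjusted 0.278). A level of at least 10% was reached by 40.2% of the plus events and by 15.0% of the minus events. The median junction had 202 reads for plus and 299 for minus events, and the part of this depth in the difference was not tested. The alternative form was called the higher one at 59 plus and 49 minus events, 6.75% and 2.06%.

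Counts of downstream shifts were highest at 4 nt and lowest at 12 nt, with a rise between 8 and 9 nt, and upstream counts were highest at 5 nt. With sign minus, 554 events had 4 nt, 427 had 5 nt, 328 had 6 nt, 175 had 8 nt, 195 had 9 nt and 119 had 12 nt. With sign plus the commonest length was 5 nt with 204 events, against 113 of 4 nt and 47 of 12 nt. The plus levels were highest close to the listed acceptor: the median was 10.3% ± 0.238 at 4 nt, 8.97% ± 0.364 at 5 nt, 8.47% ± 0.306 at 7 nt and 2.75% ± 0.330 at 12 nt. The minus levels stayed within 1.13% (10 nt) and 2.14% (5 nt) at all 9 lengths. At lengths of 4, 7 and 10 nt no minus event was called the main form, while 18 of 119 were at 12 nt.

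**Figure D1:**
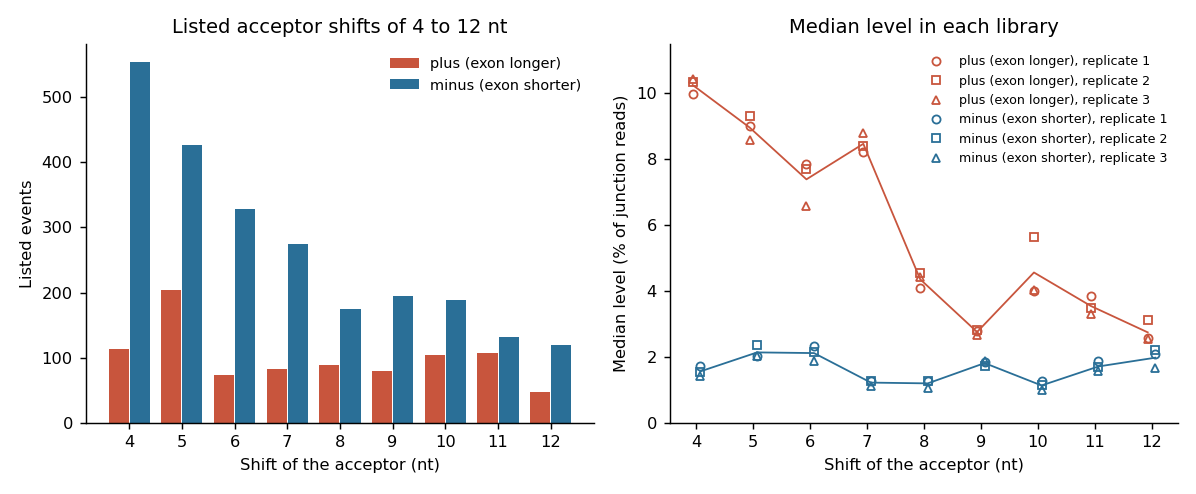
Left, listed events by the length of the shift (nt) for upstream (plus) and downstream (minus) acceptors. Right, the median level in percent of junction reads in each library, with lines through the mean of the 3 libraries. Minus events number 554 at 4 nt and 119 at 12 nt, and plus medians are 10.3% at 4 nt and 2.75% at 12 nt.

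The deposited list was set against the AG dinucleotides that lie 4 to 12 nt from an acceptor of the transcript chosen for each gene. In genes with listed shifts this was the transcript whose exon ends best abut the listed sites. Acceptors found only in other transcripts were not scanned, and upstream sites in very short introns were left out. The part of these choices in the shares was not tested. In 14090 listed genes with 91003 introns there were 4469 such sites upstream and 60630 downstream. Upstream sites were listed as acceptor shifts in 789 cases (17.7%, exact binomial interval 16.5 to 18.8%) and downstream sites in 2380 (3.93%, 3.77 to 4.08%). With distance the share fell from 32.4% at 4 nt to 5.39% at 12 nt upstream, and from 9.77% to 1.58% downstream. Upstream sites at 11 nt were listed in 14.5% of cases. Sites at a distance divisible by 3 were listed in 10.6% of cases upstream (9.0 to 12.3%) and others in 20.9% (19.5 to 22.4%). Downstream the shares were 3.08% (2.85 to 3.32%) and 4.37% (4.17 to 4.57%). These classes differ in distance, since only the others include 4 and 5 nt, and the part of distance was not tested. At 8, 9 and 10 nt the shares were 2.59%, 2.69% and 2.24% downstream, and 18.3%, 14.1% and 16.8% upstream. These intervals cover counting error only, sites were not matched on read depth, and a site in a weakly transcribed gene cannot be listed.

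The base before the AG ordered the sites in the same way on either side. Downstream, CAG sites were listed in 12.2% of 10696 cases, TAG in 7.08% of 8287, AAG in 2.09% of 22842 and GAG in 0.0744% of 18805. Upstream the shares were 36.1% for CAG, 29.8% for TAG, 20.2% for AAG and 4.36% for GAG. GAG was the commonest site upstream, with 1766 of 4469, and had the lowest share listed in either direction. The listed acceptor itself had C or T before its AG at 92.9% of the plus and 84.6% of the minus events, and the alternative one at 57.9% and 79.3%.

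**Figure D2:**
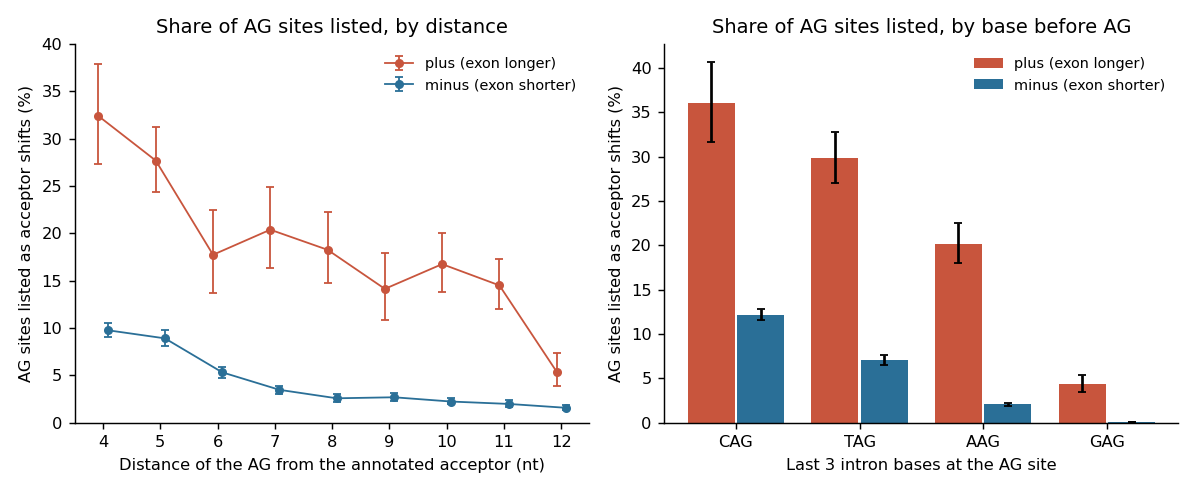
Share of AG sites listed as acceptor shifts, in percent, by distance in nt from the annotated acceptor (left) and by the base before the AG (right), with exact 95% binomial intervals. Shares fall with distance to 5.39% upstream and 1.58% downstream at 12 nt, and by base they run from 36.1% (upstream CAG) to 0.0744% (downstream GAG).

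Levels followed the same order as listing. Among plus events the median level was 16.4% ± 1.41 for 160 CAG acceptors, 8.39% ± 0.172 for 288 TAG, 5.97% ± 0.0891 for 249 AAG and 1.03% ± 0.0899 for 77 GAG. Among minus events it was 2.22% ± 0.122 for 1294 CAG, 1.51% ± 0.0865 for 582 TAG, 0.679% ± 0.0880 for 476 AAG and 0.490% ± 0.371 for 13 GAG. Neighbours in this order did not overlap between libraries except AAG and GAG with sign minus. Junctions of AAG and GAG acceptors were deeper, with a median of 575 reads for minus AAG against 249 for minus CAG, and the part of depth in the order was not tested. Over both signs, 2324 acceptors with C or T before AG exceeded 816 with A or G by 1.44 points ± 0.0791 (2.73% against 1.29%), in 3 of 3 libraries (exact p = 0.25, adjusted 0.278).

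The level also moved with the listed acceptor that it competed with. Where the listed acceptor had A or G before its AG and the upstream alternative C or T, the median level was 76.0%, 70.3% and 73.3% in the 3 libraries (39 events), and 24 of these were called the main form. In the opposite case, a purine at the alternative and a pyrimidine at the listed site, it was 3.55% ± 0.146 upstream (310 events) and 0.615% ± 0.0818 downstream (398 events), with 2 and 0 main forms. For downstream alternatives with C or T, the median was 4.67% ± 0.266 against a listed purine (274 events) and 1.76% ± 0.0911 against a listed pyrimidine (1602 events). Listed GAG acceptors stood out: the median was 84.7% ± 2.81 for 8 plus and 54.8% ± 0.862 for 18 minus events. PSAN and AT2G26500 above show the first pattern, with cag upstream of AAG, and AT1G11930 and AT3G52920 the last, with gag before the capitals. AT1G56220, with a CAG 9 nt downstream of a listed GAG, had a mean level of only 22.7%, and its alternative form was called the lower one.

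**Figure D3:**
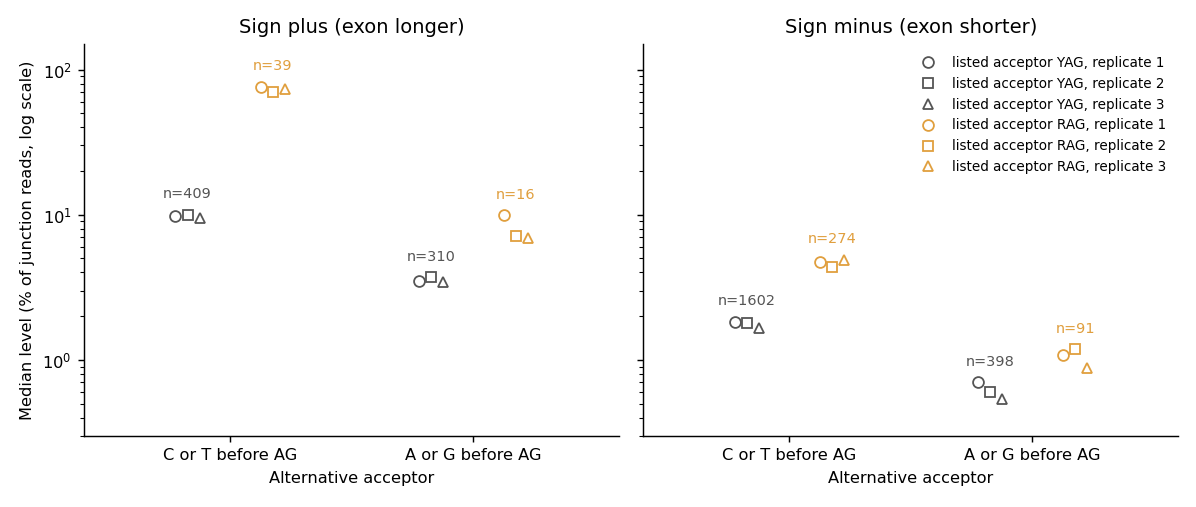
Median level (percent of junction reads, log scale) in each library by the base before the AG of the alternative acceptor and of the listed one, for upstream (plus) and downstream (minus) shifts, where YAG has C or T and RAG has A or G. The 39 upstream YAG acceptors that compete with a listed RAG stand at 70.3 to 76.0%.

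The site listed as an upstream acceptor did not always end in AG. Of 2369 minus events placed in a gene model, 2366 (99.9%) had an alternative AG, and of 852 plus events 774 (90.8%). The other 78 plus sites ended in GG (29), TG (29), AT (18), GT or AA (1 each). Their median level was 0.131% and their highest 6.37%. Whether reads at these sites come from splicing there or from errors in placing reads was not tested. A further AG stood between the listed and the alternative acceptor in 5.87% of plus and 10.5% of minus events. In the 20 nt that end 3 nt before the upstream acceptor, C and T made up 59.1% of bases for plus and 61.3% for minus events.

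Lengths that keep the reading frame made up about the same share or less in coding sequence as in UTRs. Of 2857 coding events 708 could be divided by 3 (24.8%, exact 95% interval 23.2 to 26.4%), against 94 of 299 in 5' UTRs (31.4%, 26.2 to 37.0%) and 19 of 53 in 3' UTRs (35.8%, 23.1 to 50.2%). Coding acceptor shifts over 12 nt had 31.5% (29.9 to 33.1%). By sign the coding share was 21.5% for plus and 26.0% for minus events.

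In coding sequence the medians of the length classes were close, while main forms were mostly frame-keeping. The median was 1.88% ± 0.117 for lengths divisible by 3 and 1.96% ± 0.130 for other lengths. The difference was -0.0810 points ± 0.0289 (exact p = 0.25, adjusted 0.278), and -0.206 points with at least 20 junction reads in every library. With at least 10 alternative reads in every library it was 8.62 points, but that minimum selects on the level itself. The alternative form was the main one at 62 of 708 frame-keeping (8.76%) and 16 of 2149 frame-shifting coding events (0.745%). For minus events the counts were 39 of 543 (7.18%) and 2 of 1547 (0.129%), and for plus events 23 of 165 (13.9%) and 14 of 602 (2.33%). Among coding minus events at 50% or more, 49 of 58 (84.5%, interval 72.6 to 92.7%) kept the frame, against 24.0% of the 789 under 1%. Among plus events the share was 33.3% under 1%, 9.73% between 5 and 10%, and 53.2% at 50% or more.

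**Figure D4:**
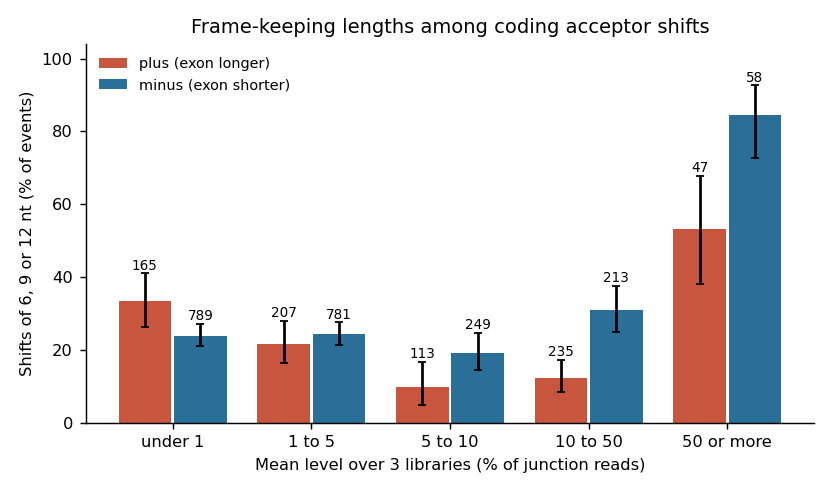
Share of coding acceptor shifts with a length divisible by 3 (percent, with exact 95% binomial intervals and the number of events above each bar) by mean level. The bins at 50% or more hold 84.5% such lengths downstream and 53.2% upstream.

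In UTRs, where no frame is read, 113 events with lengths divisible by 3 had a median of 6.13% and 239 others 4.51%, a difference of 1.63 points ± 0.451 (exact p = 0.25, adjusted 0.278). There 5 and 15 events had the alternative form as the main one. Over all regions the difference between the length classes was 0.105 points ± 0.0378 (2.25% against 2.14%; exact p = 0.25, adjusted 0.278), and it had opposite signs by direction: 3.41% against 6.45% for plus and 1.93% against 1.54% for minus events.

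The predicted stop codon was placed by translating the gene model from its start with the shifted acceptor. Of 2148 frame-shifting coding events, 1847 met a stop more than 50 nt before the last exon junction, the position rule of nonsense-mediated decay, and 301 did not. The former had a median level of 2.27% ± 0.135 at junctions with a median of 242 reads, and the latter 0.735% ± 0.0691 at 576 reads. The main form was the alternative at 7 of the 1847 (0.379%) and 9 of the 301 (2.99%). Frame-keeping events met such a stop in 46 of 165 plus and 5 of 543 minus cases. The 1898 coding events with an early stop lay 0.966 points ± 0.0874 above the other 958 (2.30% against 1.33%; exact p = 0.25, adjusted 0.278). That difference was 0.975 points with at least 20 junction reads in every library. It was -7.78 points among events with at least 10 alternative reads in every library, a minimum that selects on the level itself.

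Annotation and level went together. The alternative acceptor was itself an acceptor of another RefSeq transcript of the gene for 529 of 3221 events (16.4%). These had a median of 14.4% ± 0.191 and the remaining 2692 1.59% ± 0.137, a difference of 12.8 points ± 0.123 (exact p = 0.25, adjusted 0.278). Of the 108 events whose alternative form was the main one, 98 were placed in a gene model, and 92 of these were annotated in this way. At these 92 the transcript used for numbering carries the less used acceptor. An annotation can rest on RNA reads, so it is not independent evidence of use in leaves.

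In the chloroplast's photosynthetic machinery 2 upstream acceptors took almost all reads. PSAN encodes the N subunit of photosystem I, in the thylakoid lumen. Its acceptor 4 nt upstream in intron 2 (chr5:25628810-25628813, coding) had 99.2%, 99.7% and 99.6% of 36531, 34597 and 62863 junction reads (99.5% ± 0.25, SD, n = 3). AT2G26500 encodes PetM, a subunit of the cytochrome b6f complex. Its acceptor 4 nt upstream in intron 1 (chr2:11270364-11270367, 5' UTR) had 96.5%, 96.8% and 96.8% (96.7% ± 0.168). The log2 ratio of alternative to other reads was 7.78 and 4.88, with adjusted p = 3.98e-11 and 1.75e-10 in edgeR's quasi-likelihood test. Libraries lay within 0.5 points of each other in either gene, and at this depth PSAN was among the events called different between libraries (chi-square adjusted p = 2.19e-20, lowest in replicate 1), while AT2G26500 was not called (adjusted p = 0.269).

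In genes of translation and secretion the upstream acceptor in the 5' UTR was also the main one. The ribosomal protein gene AT3G47370 (S10p/S20e family) used an acceptor 10 nt upstream (chr3:17454452-17454461) at 93.0%, 94.4% and 93.4%. SEC61 BETA (AT2G45070), a subunit of the channel through which proteins enter the endoplasmic reticulum, used one 4 nt upstream (chr2:18587472-18587475) at 80.3%, 83.6% and 81.3%. Another ribosomal protein gene, AT2G19730 (L28e family), divided its reads almost evenly: an acceptor 4 nt downstream (chr2:8511739-8511742) had 53.4%, 55.3% and 55.2%. There the forms did not differ beyond the spread between libraries (log2 ratio 0.27, edgeR adjusted p = 0.282).

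Several main forms kept the frame in coding sequence. In AT1G11930, which encodes a putative pyridoxal phosphate-dependent enzyme, an acceptor 6 nt downstream (chr1:4030221-4030226, intron 6) had 99.9%, 99.2% and 98.7%. In UBP1A (AT1G54080), an RNA-binding protein with affinity for uridine-rich RNA, an acceptor 12 nt downstream (chr1:20185389-20185400, intron 6) had 95.5%, 97.1% and 96.5%. AT2G26340, an uncharacterized protein, used an acceptor 9 nt upstream (chr2:11216092-11216100) at 90.0%, 91.6% and 91.2%. AT5G59130, a subtilase, used one 12 nt upstream (chr5:23872908-23872919) at 76.0%, 84.3% and 84.3%. All 4 were called the main form (edgeR adjusted p from 3.07e-10 to 1.15e-06), and all 3 libraries of each lay above 50%. The libraries of AT5G59130 were called different from each other (chi-square adjusted p = 0.0243).

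Main forms that shifted the frame were rarer. Besides PSAN, the resistance gene AT1G61190 (a receptor with NB-ARC and leucine-rich repeat domains) used an acceptor 7 nt upstream (chr1:22560420-22560426, intron 1) at 87.8%, 91.4% and 89.6%. In PSAN and AT1G61190 the frame is shifted only relative to the transcript used for numbering, whose acceptor had the fewer reads. The main acceptor of either gene is itself that of another RefSeq transcript, so these forms need not be out of frame. Which frame encodes the known protein was not tested. Translated from the start of the numbering transcript, the main form of either gene ended after the last exon junction. AT1G61190 belongs to a family of similar genes, so its reads may be shared and its level is uncertain.

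In 5 further genes the alternative acceptor was used at intermediate levels. AT3G52920, annotated as a transcriptional activator, used an acceptor 9 nt downstream at 48.2%, 49.1% and 48.3%, and the methyltransferase gene AT4G14360 one 5 nt upstream at 49.0%, 52.0% and 53.9%. AGT (AT2G13360), the peroxisomal aminotransferase of photorespiration, used an acceptor 5 nt downstream in the 5' UTR (chr2:5540931-5540935) at 22.0%, 20.3% and 20.5%. The lysine-sensitive aspartate kinase gene CARAB-AK-LYS (AT5G14060) used one 6 nt upstream at 32.7%, 31.9% and 34.6%. AT1G49975, annotated as a photosystem I subunit N protein, used one 11 nt upstream at 29.3%, 29.5% and 27.5%. In these 5 genes the libraries lay within 5 points of each other. Those of AGT were called different (chi-square adjusted p = 0.0115), and those of the other 4 were not (adjusted p from 0.312 to 1).

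In 3' UTRs, RPE (AT5G61410), the ribulose-5-phosphate epimerase of the Calvin cycle, had 11.03%, 12.1% and 10.7% at an acceptor 6 nt downstream. PGR5-LIKE A (AT4G22890), a thylakoid protein of cyclic electron flow, had 9.55%, 11.02% and 10.02% at one 4 nt downstream. CAC3 (AT2G38040), a subunit of the plastid acetyl-CoA carboxylase, had 15.5%, 16.9% and 18.0% at one 8 nt upstream.

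**Figure D5:**
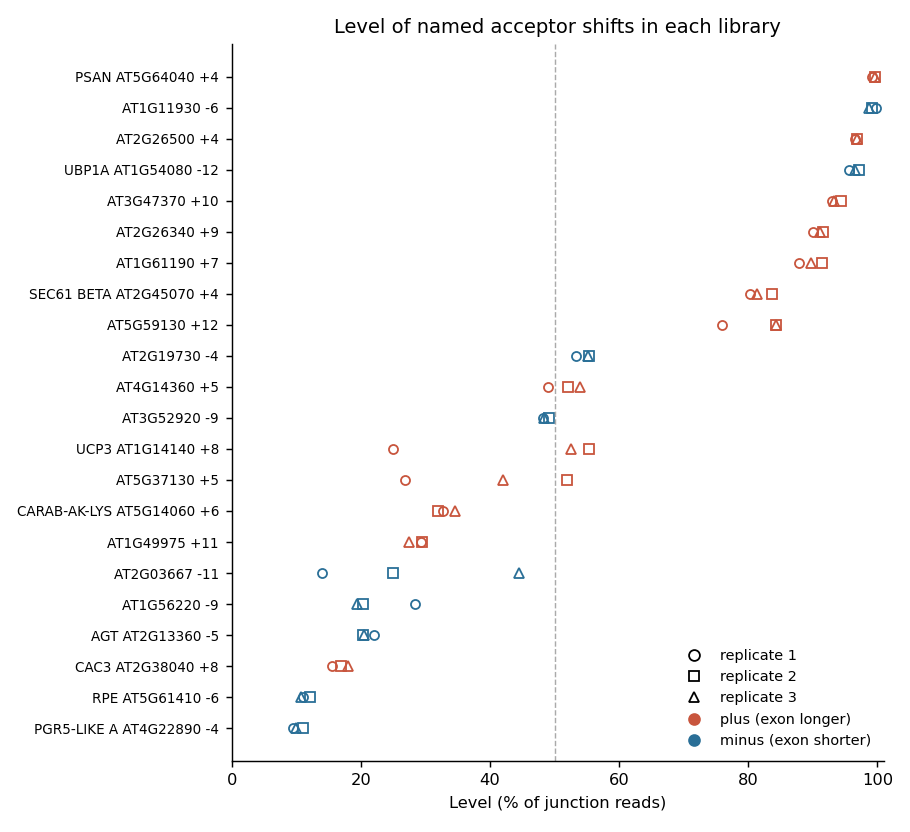
Level (percent of junction reads) of each named acceptor shift in the 3 libraries, with the sign and length in nt after the gene, leaving out those named only from gene lists. The dashed line is 50%, and the 10 uppermost, PSAN to AT2G19730, lie above it in every library.

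Across functional groups, genes of photosynthesis had many of these events at very low levels. A shift of 4 to 12 nt was listed in 17 of 36 photosynthesis genes that have any junction-level event (47.2%; 18.2% of all genes), and their median junction had 60576 reads in replicate 1. Their 27 events had a median level of 0.00824%, against 2.17% for all events of this length. PSAN was the highest. LHCA2 (photosystem I antenna) had 0.306%, 0.391% and 0.299% at an acceptor 11 nt upstream, and PSBS, which acts in heat dissipation, 0.0409%, 0.0635% and 0.0545% at one 9 nt downstream. LHCB5, an antenna of photosystem II, had 0.0152% ± 0.00437 at a site 7 nt upstream without an AG.

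Light signalling genes had 14 such events in 8 of 17 genes (47.1%; 18.2% of all genes), with a median of 1.27%. PHOT2, a blue-light receptor kinase, used an acceptor 10 nt upstream in intron 14 at 11.3%, 8.60% and 11.1%, which shifts the frame. PIF5 (AT3G59060), a transcription factor that acts downstream of phytochrome, had shifts of 4 to 12 nt at 4 introns. They stood at 7.21% ± 0.938 (11 nt upstream, 5' UTR), 7.21% ± 1.90 (6 nt downstream), 4.45% ± 0.362 (4 nt downstream) and 1.04% ± 0.455 (5 nt downstream). Its relative PIF4 (AT2G43010) had a shift of 6 nt downstream at 2.00%, 3.64% and 3.20%, where PIF5 had 5.13%, 8.87% and 7.63%. The segment has the same letters in the 2 genes, and their libraries did not overlap. This pair was chosen after its values were seen.

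SR proteins, which act in splice-site choice, had 9 events in 6 of 18 genes (33.3%; 18.2% of all genes), with a median of 1.12%. SR34 had an alternative 5' UTR acceptor, 4 nt downstream (chr1:626913-626916), at 20.8%, 15.3% and 19.9%, which were called different between libraries (chi-square adjusted p = 0.0245). SR34b used one 10 nt upstream at 86.8%, 97.01% and 87.4% of 76, 67 and 111 reads, at a junction that could not be placed in a numbered intron of the gene model. The other 12 splicing factors had 5 events in 4 genes (33.3% of these genes), all at levels at or under 1.77%. AGO1, the main slicer of microRNA pathways, had the single event of 11 small RNA genes (9.09% of these genes), at levels of 50.7%, 43.9% and 42.7%. There edgeR's test called neither form higher (log2 ratio -0.25, adjusted p = 0.35). Clock genes had 4 events in 3 of 17 genes (17.6%), close to the share of all genes, and that of PRR3 rested on 4 alternative reads. UPF3, a factor of nonsense-mediated decay, had 2.61%, 3.10% and 4.92% (3.54% ± 1.22) at an acceptor 6 nt upstream. These rested on 16 alternative reads over the 3 libraries. These lists differ in depth and intron number, whose part in the counts was not tested.

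Few of these events were called different between the libraries, at median alternative reads of only 5, 4 and 7. A chi-square test of homogeneity, which allows for counting error alone, called 162 of 3290 events (4.92%) after adjustment over all nuclear events, where 10.1% were called. With at least 10 alternative reads in every library it called 53 of 763 (6.95%), against 19.6% of all nuclear events with that minimum. The sets were not matched on depth, and the part of depth in these shares was not tested. Of the 162, 106 were highest in replicate 1, 42 in replicate 2 and 14 in replicate 3. The count fell to 23 without replicate 1, 105 without replicate 2 and 83 without replicate 3. Among junctions with at least 50 reads in every library the widest range was in AT2G03667 (asparagine synthase family), with 14.0%, 25% and 44.6% at an acceptor 11 nt downstream. UCP3 (AT1G14140), a mitochondrial carrier, followed with 25%, 55.3% and 52.5% at one 8 nt upstream. AT5G37130 (prenylyltransferase superfamily) had 26.8%, 52% and 42.1% at one 5 nt upstream. Replicate 1 was lowest in all 3, and replicate 2 was highest in UCP3 and AT5G37130. All 3 had 57 to 145 junction reads. A deeper case was AT1G56220, of the dormancy and auxin associated family, with 28.4%, 20.4% and 19.4% at an acceptor 9 nt downstream of 2658, 6045 and 6201 reads.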

How the data were processed

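The deposited table gives raw read counts by the authors, without normalization, for the alternative form and the other reads of each event in 3 libraries. Per the submitters' processing notes, CASAVA 1.8.2, GSNAP and the build TAIR10 were used, with event caller and strandedness not given in the sources used here. Class code ALTA was read as a shifted acceptor from its coordinates. All 9084 junctions with several events have 1 total per library. Gene models are RefSeq's on TAIR10.1, using for each gene the transcript whose exon ends best abut the listed sites. Coordinates are 1-based, as deposited.

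Levels were compared by the difference of medians in each library with an exact sign-flip permutation test over libraries (10 comparisons). Events are not replicates. edgeR 4.0.16 tested alternative against other counts of the nuclear junction-level events, with equal library size and library as block. The chi-square test used scipy 1.17.1 on all nuclear events, and both tests took an adjusted p of 0.05. Both were tested on simulated data. The alternatives were DESeq2 1.42.0, TMM scaling, no block, minimum reads, 1 event per junction, mean levels, each gene's first transcript and leaving out each replicate. Splits by sign were added after seeing the data. Binomial intervals are Clopper-Pearson at 95%. Named events were the 6 with the most alternative reads, the 3 with the most in each sign and frame class, the top event of each length, list genes with 10 alternative reads in every library, the 3 with the widest range among those that differ between libraries, and the 2 nearest 50%. The other list events, PIF5's 5-nt shift and AT1G56220's library values were chosen after values were seen. Members, lists and tests were chosen with earlier results of these data known. A result for 1 list gene is not reported here.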

Additional observations from a re-analysis of the deposited data

How the results depend on the processing

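Depth limits these levels, since 1 alternative read sets the lowest level that a junction can show. A minimum of alternative reads also selects on the level itself, so it is not a filter on depth alone. With at least 10 alternative reads in every library (748 events) the median level was 13.3%, lengths divisible by 3 exceeded others by 8.62 points in coding sequence, early stops lay -7.78 points from the rest, the shifts of 4 to 12 nt lay -5.47 points from longer ones, 82 of 763 events, gene-wide ones included, differed between libraries when p-values were adjusted over events of that depth alone (53 when adjusted over all events), and 30.3% of coding lengths could be divided by 3. With at least 20 junction reads in every library the length classes differed by -0.126 points, and by -0.206 points in coding sequence. Early stops then lay 0.975 points from the rest. With 1 event per junction the difference from longer shifts was -0.143 points. With means for medians the differences were 6.73 points (frame, coding), -0.242 (frame, UTR), -4.50 (early stop) and -2.98 (longer shifts). Split by sign after seeing the data, minus events gave 0.298 (frame, coding) and -0.402 points (longer shifts), and plus events -3.05 (frame), -7.41 (frame, UTR) and 2.59 points (donors). By sign the other differences kept direction but not size, with plus and minus values of 7.11 and 1.3 points for the base before AG, 23.6 and 8.91 for annotation and 3.64 and 0.386 for early stops. The cause was not tested.

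The other differences kept their direction under these settings, and all did without any 1 replicate, and with each gene's first transcript the 3 regional shares of lengths divisible by 3 stayed within their intervals. Leaving out 1 replicate gave 23 to 105 events that differ between libraries, and 93 to 108 whose alternative form was higher, of which at least 92 were among the 108. The share higher over all events was then 4.97 to 5.52%. Without the replicate block the counts were 108 higher and 3049 lower, DESeq2 gave 97 and 3019, and at least 20 junction reads 90 and 3004. Over all events tested, the share higher was 5.66%, 5.01% and 3.83% in the same order. TMM scaling, which treats alternative and other columns as separate libraries and so rescales their ratio, gave 901 higher and 1514 lower, and 34.9% higher over all events. Under it the log2 ratio turned positive for AGT (2.73), AT1G56220 (2.86), RPE (1.67), CARAB-AK-LYS (3.63), PGR5-LIKE A (1.5), AT1G49975 (3.34), CAC3 (2.33), AT3G52920 (4.56), SR34 (2.51), PHOT2 (1.52), AGO1 (4.39), UCP3 (4.36), AT5G37130 (4.05), AT2G03667 (3.31) and PIF5 (0.95, 0.95 and 0.22). Leaving out 1 replicate, that of UCP3 ran from -0.58 to 0.21.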

Other observations

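Of the 81 junctions with 2 shifts of 4 to 12 nt, 38 had 1 on either side of the listed acceptor and 43 had both on the same side. A 3-nt acceptor shift was listed at 51 of the 3174 junctions and a retained intron at 2195 (69.2%). The 35 events with totals over the whole gene had levels from 0.000775% to 19.3% of those reads.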
